A study of Mus musculus with 3 samples.

Results

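Spi1, Cebpa, Cebpb, Cebpd, Cebpe, Klf4 and Gata2 encode transcription factors of the myeloid lineages. They were taken by symbol from the rows of 3 single-cell matrices of mouse peripheral blood mononuclear cells (PBMCs), and all 7 were found among 32285 genes. The libraries came from female C57BL/6 mice: young mice of 8 weeks and aged mice of 16 months, both labelled as given no treatment (the methods state tail vein PBS for the controls), and aged-GA mice of 16 months given glycyrrhizic acid (GA), a saponin of licorice root, by tail vein for 1 month. Each group was 1 library. The study describes blood from several mice per group, how it was combined was not stated, and the barcodes were not tied to single mice. A difference between groups therefore cannot be told apart from a difference between libraries, no test was run, and all intervals are 95% intervals of counting error only.

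PU.1, the product of Spi1, is an ETS factor that myeloid cells hold at high levels and B cells at lower levels, and T cells silence the gene as they commit. The C/EBP factors are basic leucine zipper proteins that bind DNA as dimers. C/EBPα drives the step to granulocyte-monocyte progenitors, C/EBPε the formation of secondary granules in neutrophil precursors, and C/EBPβ and C/EBPδ respond to cytokines and inflammation in mature cells. KLF4, a zinc finger factor, is required for the monocyte fate and is also held by resting lymphocytes. GATA2 serves stem cells, mast cells, basophils and megakaryocytes, and with C/EBPα it defines the basophil lineage.

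The counts were unique molecular identifiers (UMIs), each marking 1 captured RNA molecule. The libraries held 58894294 (young), 82260961 (aged) and 98155671 (aged-GA) UMIs in 10842, 16038 and 17332 barcodes, of which 8851, 10238 and 12648 passed the filters of the methods. Pairs of libraries shared 24 to 34 kept barcode sequences. Levels are CPM, the UMIs of a gene per 1000000 UMIs of the cells of a class. Since the libraries read 1 end of each transcript, levels were compared between classes and libraries and not between genes.

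Cells were gated by lists of 8 marker genes, none of them a member, as the family of cells with at least 3 list genes detected and at least 2 more than any other family. The share of cells assigned was 95.1% (young), 90.3% (aged) and 90.9% (aged-GA). Classical monocytes (Ly6c2 and Ccr2 among their list) numbered 2, 744 and 114, nonclassical monocytes (Ace and Treml4) 48, 437 and 186, mature neutrophils (Cxcr2 and Retnlg) 9, 765 and 495, and basophils (Mcpt8 and Cpa3) 0, 117 and 26. Granule-rich neutrophils (Ngp and Camp) numbered 4, 25 and 14, and neutrophils with neither list in the lead, called intermediate, 4, 58 and 43. B cells numbered 2198, 4224 and 5497, T cells 5446, 2287 and 3781, and NK cells 338, 275 and 274. Myeloid classes could thus be compared between aged and young mice in nonclassical monocytes only, since a class needed 20 cells on both sides.

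Genes held out of the gates were read in the same classes. S100a8, a neutrophil calcium-binding protein, had 67787 CPM (aged) and 44266 CPM (aged-GA) in mature neutrophils, against 269 and 99.9 CPM in classical monocytes. Lyz2, the lysozyme of myeloid cells, had 24803 and 27937 CPM in classical monocytes, against 2943 and 2296 CPM in mature neutrophils. Among aged cells Lyz2 had 8753 CPM in granule-rich neutrophils, above the 5184 CPM of nonclassical monocytes. The other held-out monocyte genes differed in direction between aged classical and nonclassical monocytes. Csf1r had 324 against 845 CPM, Cst3 2460 against 6398 CPM and Psap 2342 against 1410 CPM. Il6, a cytokine of activated basophils, had 359 and 388 CPM in basophils. In aged mice the cells exactly at the limit of their gate were 44 of 744 classical monocytes, 45 of 437 nonclassical monocytes, 62 of 765 mature neutrophils and 24 of 117 basophils. Of the aged classical monocytes, 494 also had 3 or more genes of another family. Over all 744 of them the granule-rich neutrophil list summed to 2499 CPM, against 104488 CPM in granule-rich neutrophils.

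**Figure D1:**
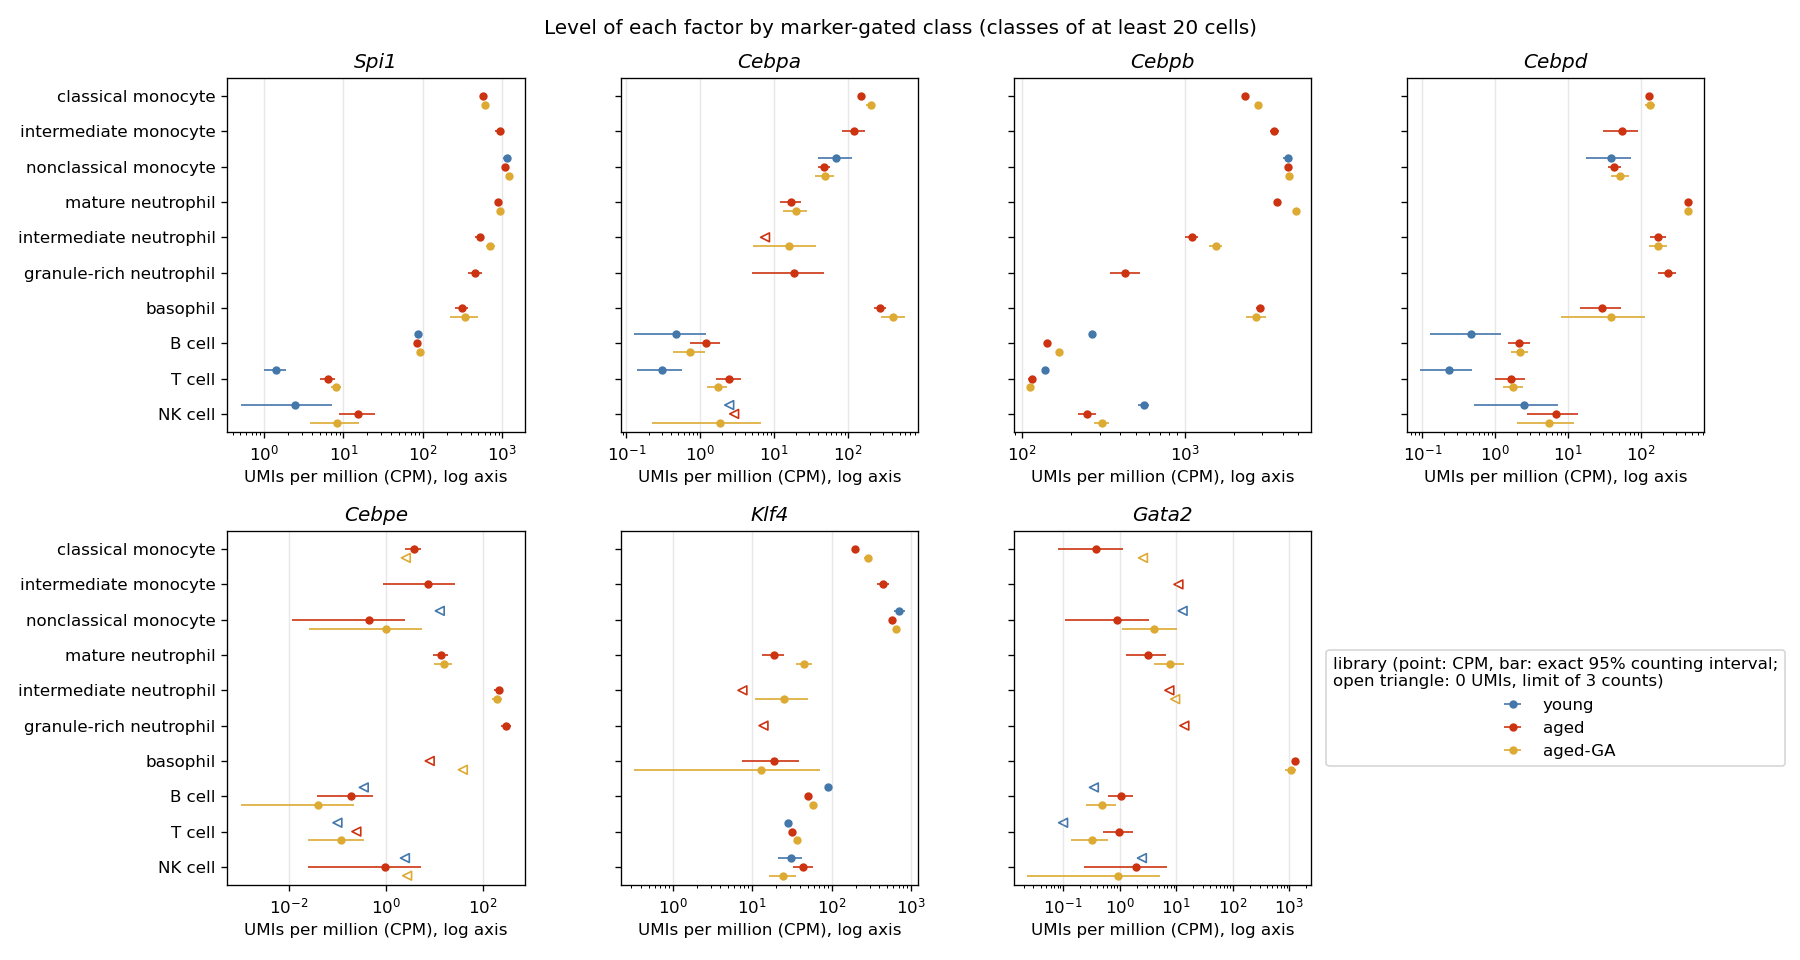
Level of each factor (CPM, log axis) in each marker-gated class of at least 20 cells, 1 point per library with its 95% counting interval. An open triangle marks 0 UMIs, drawn at the limit of 3 counts. Spi1 lies highest in nonclassical monocytes, Cebpb in nonclassical monocytes and mature neutrophils, Cebpe in intermediate and granule-rich neutrophils, Klf4 in nonclassical monocytes and Gata2 in basophils.

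Spi1 (ENSMUSG00000002111, chr2:91082390-91115756 of GRCm38, plus strand) was found in every class. In nonclassical monocytes it had 1154 CPM in young (interval 1020 to 1301), 1095 in aged (1052 to 1139) and 1232 in aged-GA mice (1164 to 1303). In mature neutrophils it had 890 and 932 CPM in aged and aged-GA mice, and in classical monocytes 572 (556 to 589) and 611 (567 to 658). Nonclassical monocytes were thus the highest of these classes in both aged libraries, and classical monocytes lay below mature neutrophils in both. Among aged neutrophils Spi1 was lower with more granule genes, at 519 CPM (451 to 595) in intermediate and 459 CPM (373 to 559) in granule-rich cells, and these intervals overlapped. In the aged-GA library intermediate neutrophils had 706 CPM (616 to 805), above the classical monocytes of that library. Basophils had 311 CPM (aged) and 336 CPM (aged-GA), below all the monocyte and neutrophil classes of at least 20 cells. B cells held Spi1 at 85.8, 85.4 and 92.9 CPM, a level nearly equal in the 3 libraries, whereas T cells had 1.40, 6.33 and 8.07 CPM and NK cells 2.47, 15.4 and 8.26 CPM. After thinning each cell to 500 UMIs, Spi1 was seen in 43.2% of aged nonclassical monocytes, 39.5% of mature neutrophils, 4.40% of B cells and 0.175% of T cells.

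Cebpa (ENSMUSG00000034957, chr7:35119293-35121928, plus strand) had its highest level in basophils. It reached 273 CPM (223 to 332) in aged and 414 CPM (283 to 585) in aged-GA basophils. Classical monocytes followed with 150 CPM (142 to 159) and 202 CPM (177 to 230). Nonclassical monocytes had 69.1, 47.6 and 49.1 CPM in young, aged and aged-GA mice, and mature neutrophils 16.9 and 19.7 CPM in aged and aged-GA mice. In both aged libraries the gene was thus lower in nonclassical monocytes and in mature neutrophils than in classical monocytes. Granule-rich neutrophils of aged mice had 18.5 CPM (5.05 to 47.5) from 4 UMIs. In intermediate neutrophils of aged mice no UMI was found, which allows up to 7.56 CPM. In B, T and NK cells Cebpa did not exceed 2.46 CPM in any library.

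Cebpb (ENSMUSG00000056501, chr2:167688915-167690418, plus strand) was found in nearly all myeloid cells. Nonclassical monocytes had 4291 CPM (4028 to 4567) in young, 4297 (4211 to 4384) in aged and 4396 (4267 to 4528) in aged-GA mice, and these intervals overlapped. Mature neutrophils had 3715 CPM (3635 to 3797) in aged and 4834 CPM (4725 to 4946) in aged-GA mice, and classical monocytes 2357 CPM (2323 to 2391) and 2822 CPM (2726 to 2920). Nonclassical monocytes lay above mature neutrophils in the aged library and below them in the aged-GA library. Within the aged neutrophils Cebpb was lower with more granule genes, at 1104 CPM in intermediate and 431 CPM in granule-rich cells. Basophils had 2906 and 2744 CPM in aged and aged-GA mice. Lymphocytes held less of it: B cells had 271, 143 and 169 CPM, T cells 138, 115 and 112 CPM and NK cells 560, 251 and 309 CPM in young, aged and aged-GA mice, so in each class the young library was highest.

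Cebpd (ENSMUSG00000071637, chr16:15887286-15891031, plus strand) had its highest level in mature neutrophils. Mature neutrophils had 441 CPM (413 to 469) in aged and 448 CPM (415 to 483) in aged-GA mice, with overlapping intervals. Granule-rich neutrophils had 232 CPM (172 to 306) and intermediate neutrophils 171 CPM (133 to 217) in the aged library. Classical monocytes had 130 and 132 CPM, nonclassical monocytes 38.9, 43.1 and 52.1 CPM in young, aged and aged-GA mice, and basophils 29.5 and 38.8 CPM. The level in mature neutrophils was therefore above that of every other class of at least 20 cells. B and T cells did not exceed 2.18 CPM, and NK cells had 2.47, 6.73 and 5.51 CPM in young, aged and aged-GA mice. Of the Cebpd UMIs of the aged library, classical monocytes held 36.4% and mature neutrophils 35.0%.

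Cebpe (ENSMUSG00000052435, chr14:54710360-54712174, minus strand) followed the granule genes. Granule-rich neutrophils had 306 CPM (237 to 389) in aged mice, intermediate neutrophils 217 CPM (173 to 268) in aged and 198 CPM (152 to 254) in aged-GA mice, and mature neutrophils 13.7 CPM (9.25 to 19.6) and 15.7 CPM (10.1 to 23.4). Of the granule-rich cells of aged mice, 18 of 25 had a UMI of Cebpe, against 28 of 765 mature neutrophils and 3 of 4224 B cells. The depths differed, with medians of 8586 UMIs per granule-rich cell, 2232 per mature neutrophil and 3113 per B cell, and after thinning to 500 UMIs the shares were 12%, 0.654% and 0.0237%. No UMI was found in basophils, which allows up to 8.04 CPM (aged) and 38.8 CPM (aged-GA). In young mice all 4 UMIs of Cebpe came from 2 of the 4 granule-rich neutrophils.

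Klf4 (ENSMUSG00000003032, chr4:55527143-55532466, minus strand) separated monocytes from granulocytes. Nonclassical monocytes had 709 CPM (604 to 826) in young, 567 (536 to 599) in aged and 644 (595 to 695) in aged-GA mice, and classical monocytes 199 CPM (189 to 209) and 284 CPM (254 to 317) in aged and aged-GA mice. The 24 intermediate monocytes of aged mice lay between both subsets at 444 CPM (369 to 531). Mature neutrophils had 18.7 CPM (13.4 to 25.4) and 45.3 CPM (35.2 to 57.3) in aged and aged-GA mice and basophils 18.8 and 12.9 CPM, and in granule-rich neutrophils of aged mice no UMI was found, which allows up to 13.9 CPM. Lymphocytes exceeded the aged neutrophils: B cells had 89.3, 49.7 and 57.8 CPM, T cells 28.5, 31.9 and 36.8 CPM and NK cells 30.5, 44.3 and 24.8 CPM in young, aged and aged-GA mice. In the aged-GA library the interval of mature neutrophils overlapped those of B, T and NK cells.

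Gata2 (ENSMUSG00000015053, chr6:88193891-88207032, plus strand) marked basophils. Basophils had 1281 CPM (1169 to 1402) in aged and 1048 CPM (832 to 1303) in aged-GA mice, and every other gated class of at least 20 cells had 7.87 CPM or less. A UMI was found in 92.3% of aged and 88.5% of aged-GA basophils, against 0.284% and 0.109% of B cells, at median depths of 2732, 2253.5, 3113 and 3800 UMIs per cell. After thinning to 500 UMIs the basophils stood at 54.7% (45.2 to 63.9) in aged and 26.9% (11.6 to 47.8) in aged-GA mice, with overlapping intervals. The B cells stood at 0.0473% and 0.0182%. In the young library, which held no gated basophil, none of the 8851 kept cells had a UMI of Gata2, which allows up to 0.0622 CPM over all cells.

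Sequences upstream of 4 of the 7 genes, Cebpa, Cebpb, Klf4 and Gata2, were matched in the RefSeq promoter table of GRCm38.p6. Cebpb and Klf4 are shown because both were lower in aged than in young B cells and both were higher in nonclassical than in classical monocytes. The 250 bases before the start of each gene are given on its own strand, with matches in either direction to TGACG, the half-site of the cAMP response element, and to CCACNCCC, a KLF motif, in capitals:
Cebpb, chr2:167688665-167688914, plus strand: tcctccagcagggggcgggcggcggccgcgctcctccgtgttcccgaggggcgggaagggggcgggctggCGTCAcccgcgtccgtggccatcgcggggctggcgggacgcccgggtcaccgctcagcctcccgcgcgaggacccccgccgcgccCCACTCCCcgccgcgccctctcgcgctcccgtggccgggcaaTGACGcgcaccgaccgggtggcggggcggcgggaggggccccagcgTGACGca
Klf4, chr4:55532476-55532725, minus strand: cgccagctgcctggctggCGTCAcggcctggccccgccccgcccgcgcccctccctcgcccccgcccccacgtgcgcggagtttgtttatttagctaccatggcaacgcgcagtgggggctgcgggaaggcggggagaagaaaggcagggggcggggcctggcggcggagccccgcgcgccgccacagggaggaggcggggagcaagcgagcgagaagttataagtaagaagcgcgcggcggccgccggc

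The Cebpb window held 3 matches to the half-site and 1 to the KLF motif, and the Klf4 window 1 match to the half-site. Of 32851 such windows of mouse genes, 17.8% held the half-site and 15.9% the KLF motif. The PU.1 core GAGGAA (in 23.3% of all windows), the C/EBP motif TTNNGCAA (9.56%) and the GATA motif AGATAA (9.99%) were not among the letters of any of the 5 windows of the 4 genes. A match describes these letters and no binding.

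Between the monocyte subsets of 1 library, the factors fell into 2 groups. Cebpa and Cebpd were higher in classical than in nonclassical monocytes, by log2 ratios of 1.66 (1.37 to 1.96) and 1.59 (1.29 to 1.91) in aged mice and 2.04 (1.59 to 2.52) and 1.34 (0.88 to 1.82) in aged-GA mice. Klf4, Spi1 and Cebpb were lower in classical monocytes, by log2 ratios of -1.51 (-1.62 to -1.40), -0.94 (-1.01 to -0.86) and -0.87 (-0.90 to -0.83) in aged mice and of -1.18 (-1.37 to -0.98), -1.01 (-1.15 to -0.88) and -0.64 (-0.71 to -0.57) in aged-GA mice. Each of these 5 genes had the same direction in both libraries, and no interval held 0. Past 2-fold in aged mice lay 4 of 6 members with at least 20 UMIs (Cebpa, Cebpd and Cebpe up, Klf4 down), where 22.6% of all genes were. In aged-GA mice 4 of 5 were (Cebpa and Cebpd up, Klf4 and Spi1 down), beside 21.8% of all genes. Cebpe reached 20 UMIs through the aged classical monocytes only, with 29 UMIs in 26 of 744 cells against 1 UMI (3.06, 0.47 to 8.42). In aged-GA mice it had 0 against 1 UMI and no ratio. Spi1 lay next to 2-fold: it had -0.90 to -1.0 in aged-GA mice under 4 other settings, and -1.06 in aged mice in the stricter gate, which kept 25 of the 744 aged classical monocytes and where Cebpa had 2.59 and Cebpd 0.86. Without the cells with 3 or more genes of another family, which left 250 aged and 52 aged-GA classical monocytes, Klf4 had -1.38 and -1.11 and Cebpa 1.76 and 2.22.

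Mature neutrophils differed from classical monocytes most in Klf4 and Cebpa. Klf4 had a log2 ratio of -3.41 (-3.89 to -2.96) in aged and -2.65 (-3.05 to -2.27) in aged-GA mice, and Cebpa -3.15 (-3.66 to -2.68) and -3.36 (-3.96 to -2.81). Cebpd was higher in neutrophils by 1.77 in both (1.64 to 1.90 and 1.51 to 2.03), while Spi1, at 0.64 and 0.61, and Cebpb, at 0.66 and 0.78, were higher by less than 2-fold. Cebpe was higher by 1.87 (1.08 to 2.66) in aged mice. In aged-GA mice, where classical monocytes had no UMI, it was higher by at least 2.61 with the 0 set to 3 counts (lower end of the interval 2.20). With 4 of 6 members past 2-fold in each library, the share was near that of all genes, at 59.7% (aged) and 51.4% (aged-GA), and the median log2 ratio over all genes was -0.90 and -0.51, so that a gene at the median was lower in neutrophils. Without the cells with 3 or more genes of another family, Klf4 had -4.75 and -4.17 and Cebpa -3.51 and -4.06. A list of 14 genes of stress at dissociation, such as Fos and Jun, had medians of 1.09 and 1.46 in this comparison, and their part in it was not tested.

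**Figure D2:**
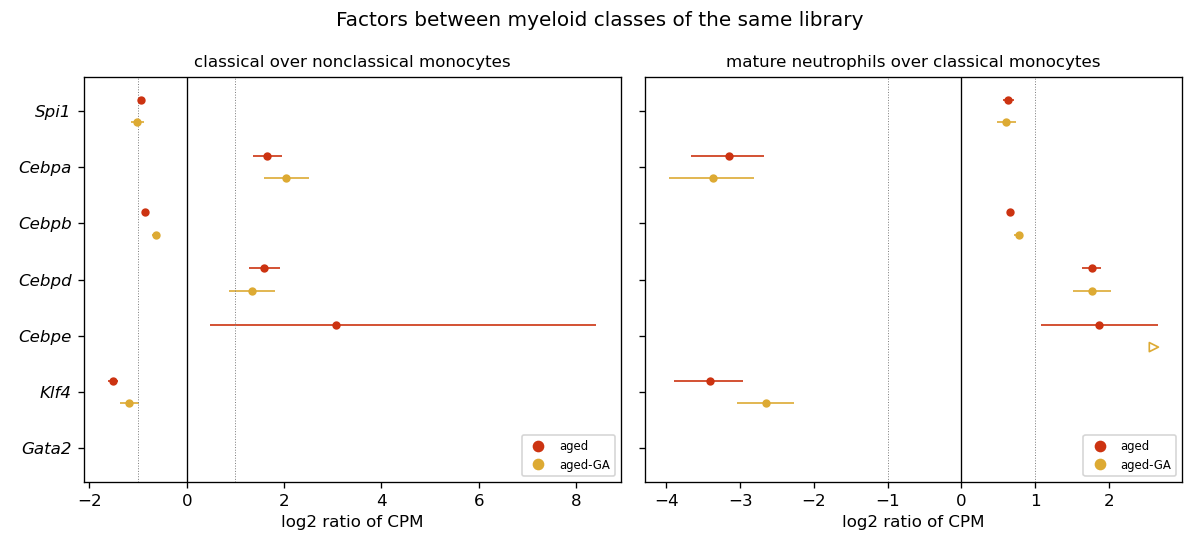
Log2 ratio of CPM between myeloid classes of the same library, with 95% counting intervals, for members with at least 20 UMIs over both classes. The open triangle is a lower bound and dotted lines mark 2-fold. The aged and aged-GA points lie on the same side of 0 for every member that has both.

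Over B cells, the myeloid excess in aged mice was above 1000-fold for the factors of single classes. Gata2 was 1200-fold higher in basophils than in B cells, where it had 17 UMIs. Cebpe was 1624-fold higher in granule-rich neutrophils, against 3 UMIs in B cells (log2 interval 9.06 to 12.98). Over NK cells the same classes had 666-fold more Gata2 and 318-fold more Cebpe, against 2 UMIs and 1 UMI in NK cells. Cebpd was 268-fold higher in mature neutrophils than in T cells and 206-fold higher than in B cells, and Spi1 was 173-fold higher in nonclassical monocytes than in T cells but 12.8-fold higher than in B cells. Cebpa was 126-fold higher in classical monocytes than in B cells. Cebpb and Klf4, which lymphocytes also held, were 30.1-fold and 11.4-fold higher in nonclassical monocytes than in B cells. In that comparison Cebpa was 39.8-fold and Cebpd 20.2-fold higher. Klf4 in mature neutrophils was below B cells, at 0.377-fold.

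Between aged and young mice, nonclassical monocytes were the myeloid class that could be compared. None of the 5 members with at least 20 UMIs was past 2-fold, where 14.7% of all genes were. Spi1 had a log2 ratio, aged over young, of -0.08 (-0.26 to 0.11) and Cebpb of 0.00 (-0.09 to 0.10). Klf4 was lower, at -0.32 (-0.56 to -0.08), and Cebpa, at -0.54 (-1.31 to 0.32), and Cebpd, at 0.15 (-0.84 to 1.32), had intervals wider than 1 log2 unit. In the stricter gate Cebpa had -1.36. Beside them, 13 of the stress genes had a median of -0.40, against 0.04 over all genes, and their part in the level of Klf4 was not tested. The young side rests on 48 cells, of which 29 passed the stricter gate, where Spi1 had 0.21.

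In lymphocytes Cebpb was lower in the aged library. The log2 ratio, aged over young, was -0.92 (-1.01 to -0.84) in B cells, -1.16 (-1.37 to -0.95) in NK cells and -0.26 (-0.35 to -0.18) in T cells. In B cells it was -1.01 without the cells with 3 or more genes of another family. Klf4 was lower in B cells, at -0.84 (-0.99 to -0.70), while the intervals held 0 in T cells, at 0.16 (-0.02 to 0.33), and NK cells, at 0.54 (-0.12 to 1.20). Spi1 in B cells had -0.01 (-0.14 to 0.13), so the 3 factors that B cells held did not share 1 direction. In B cells the stress genes also had a lower median, at -0.80, against 0.22 over all genes. Of 14, 6 were past 2-fold lower, among them Junb at -1.35 and Dusp1 at -1.40, and none higher. Of all genes in B cells, 2.46% were past 2-fold lower and 8.30% higher. Klf2, a factor of resting lymphocytes, had -0.85. In T cells the stress median was -0.25, with 1 of 14 past 2-fold lower and 2 higher (3.15% and 13.8% of all genes). In NK cells, where Cebpb had its lowest ratio, it was -0.29, with 0 of 11 lower and 1 higher (2.92% and 4.74%). Whether stress in handling took part in these levels was not tested.

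Spi1, Cebpa and Cebpd were past 2-fold higher in aged T cells, at low levels: Spi1 with 2.17 (1.61 to 2.75), Cebpa with 3.03 (1.92 to 4.29) and Cebpd with 2.81 (1.51 to 4.30). In B cells Cebpa, at 1.35 (-0.24 to 3.37), and Cebpd, at 2.19 (0.70 to 4.15), were past 2-fold, the former at 0.53 to 0.96 under 5 other settings. All of these were levels under 7 CPM in the aged library, and 17.0% of all genes in T cells and 10.8% in B cells were past 2-fold. Abundant myeloid RNAs were higher in the same cells: Lyz2 had 2.84 CPM in young and 109 CPM in aged T cells, and 34.1 and 174 CPM in B cells, and S100a8 2.51 and 75.5 CPM in T cells. Scaled to Lyz2, RNA in the mixture of the gated myeloid cells of the aged library would carry 4.73 CPM of Spi1 into T cells, or 74.7% of the level there, and 29.2% of Cebpa and 66.9% of Cebpd. In B cells it would carry 96.2% of Cebpa and 82.2% of Cebpd but 8.84% of Spi1 and 4.75% of Klf4. For Cebpb it would carry 21.5% in B cells, 16.7% in T cells and 8.92% in NK cells, whose level was the lower one in the aged library. This scaling takes every Lyz2 UMI in a lymphocyte class as free RNA. Of the aged lymphocytes, 446 B cells and 356 T cells also had 3 or more genes of another family. The part of free RNA and of such cells in these levels was not tested. In NK cells 1 of 2 members with enough UMIs, Cebpb, was past 2-fold, where 7.65% of all genes were.

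Between aged-GA and aged mice, the members with at least 20 UMIs differed by less than 2-fold in both monocyte subsets, where a ratio could be fitted. In classical monocytes Klf4 was higher by a log2 ratio of 0.52 (0.34 to 0.69), Cebpa by 0.43 (0.22 to 0.64) and Cebpb by 0.26 (0.21 to 0.31), and Spi1, at 0.09 (-0.02 to 0.21), and Cebpd, at 0.03 (-0.23 to 0.27), had intervals that held 0. None of 6 members had a fitted value past 2-fold, where 6.32% of all genes were, and Cebpe, which went from 29 UMIs to 0, had a log2 ratio of at most -0.54. The stress genes had a median of 0.35 in the same cells, and 4 B cell genes summed to 890 CPM (aged) and 2512 CPM (aged-GA), and their part in these ratios was not tested. In nonclassical monocytes Klf4 had 0.18 (0.04 to 0.32) and Spi1 0.17 (0.07 to 0.27), Cebpb had 0.03, and none of 5 members was past 2-fold (4.0% of all genes).

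In mature neutrophils Cebpb was higher in aged-GA mice by 0.38 (0.33 to 0.43), beside a median over all genes of 0.24 and over stress genes of 0.39. Spi1, at 0.07 (-0.03 to 0.17), and Cebpd, at 0.02 (-0.12 to 0.17), were close to 0. Klf4 was past 2-fold, at 1.27 (0.69 to 1.87), the 1 of 6 members to be so where 7.42% of all genes were. It rests on 69 UMIs in 25 of 495 aged-GA cells and 41 UMIs in 25 of 765 aged cells, so the share of neutrophils with a UMI was 5.05% and 3.27%. The ratio ranged from 1.00 to 1.47 over the other settings and was 1.10 without the cells with 3 or more genes of another family. Marker lists of other cells were also higher in the aged-GA neutrophils. The 4 T cell check genes summed to 30.2 CPM (aged) and 70.2 CPM (aged-GA), and the 4 B cell check genes to 842 and 1392 CPM. The nonclassical monocyte list summed to 106 and 195 CPM and the platelet list to 145 and 467 CPM. The 4 monocyte check genes summed to 4307 and 4009 CPM, of which Lyz2 was lower, at 2943 and 2296 CPM. The others were higher in the aged-GA cells: Csf1r had 75.4 and 108 CPM, Cst3 901 and 1079 CPM and Psap 387 and 527 CPM. The part of all these genes in the level of Klf4 was not tested. In intermediate neutrophils Cebpb, at 0.49 (0.31 to 0.68), and Spi1, at 0.44 (0.16 to 0.72), were higher and Cebpe had -0.13 (-0.63 to 0.36), and none of 4 was past 2-fold (8.15%).

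In basophils the interval of each of the 4 members with enough UMIs held 0. Gata2 had -0.29 (-0.65 to 0.05), Cebpa 0.60 (-0.02 to 1.18), Spi1 0.11 (-0.56 to 0.74) and Cebpb -0.08 (-0.30 to 0.13), and none of 4 was past 2-fold (14.8% of all genes). With 26 aged-GA basophils, log2 ratios of Gata2 from -0.65 to 0.05 lay within its counting interval. In B cells Cebpb and Klf4, the factors that were lower in aged than in young mice, had 0.25 (0.17 to 0.32) and 0.22 (0.09 to 0.34). They stayed below the young level, and these contrasts share the aged library. The stress genes had a median of 0.27 in B cells. In T cells Cebpb had -0.04 and Klf4 0.21 (0.03 to 0.38), and in NK cells Cebpb had 0.30 (0.06 to 0.54) and Klf4 -0.84 (-1.58 to -0.12). The members past 2-fold in lymphocytes were Gata2 in B cells (12 against 17 UMIs, -1.14) and in T cells (8 against 12 UMIs, -1.62), both lower, and both within 2-fold with 1 CPM added to each side (-0.48 and -0.59), while 2.78% of all genes in B cells, 3.55% in T cells and 3.97% in NK cells were past 2-fold.

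**Figure D3:**
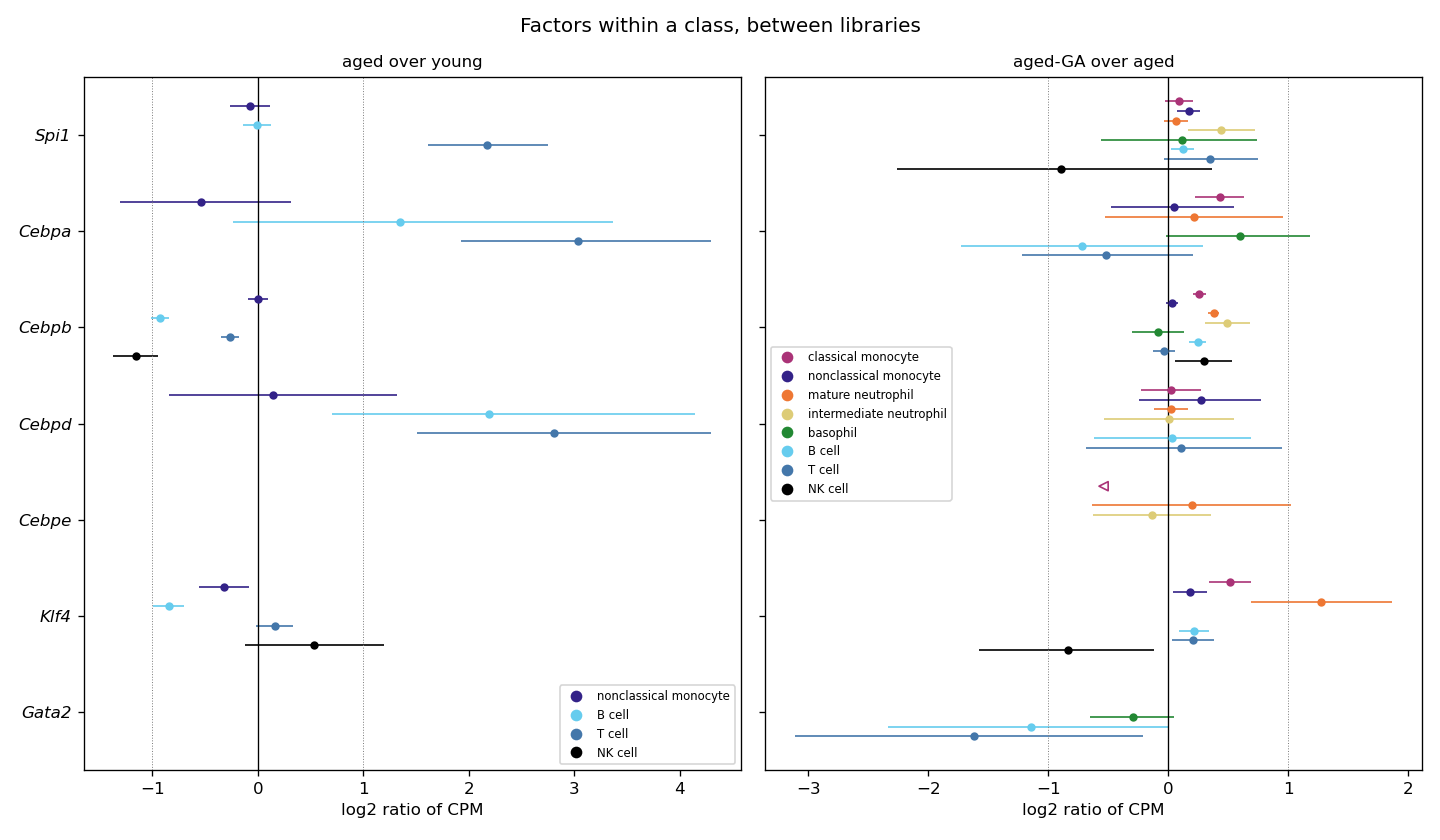
Log2 ratio of CPM within a class, aged over young (left) and aged-GA over aged (right), with 95% counting intervals, for members with 20 or more UMIs in the libraries compared. The open triangle is an upper bound and dotted lines mark 2-fold. Cebpb and Klf4 lie below 0 in B cells on the left, and Klf4 in mature neutrophils lies past 2-fold on the right.

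Over all kept cells, every member had a higher level in the aged than in the young library and a lower one in the aged-GA than in the aged library. Spi1 had 27.4, 254 and 111 CPM, Cebpb 198, 964 and 411 CPM and Klf4 43.1, 99.9 and 59.2 CPM in young, aged and aged-GA mice. The log2 ratio, aged over young, was 3.21 for Spi1, 5.47 for Cebpa, 2.28 for Cebpb, 5.75 for Cebpd, 5.76 for Cebpe and 1.21 for Klf4. For Gata2 it was at least 7.67 with the 0 set to 3 counts (lower end of the interval 7.37). Aged-GA over aged, it was -1.19, -1.92, -1.23, -1.31, -0.97, -0.75 and -2.20 in the same order. These levels hold the mix of cells as well as the level within them. Within nonclassical monocytes Spi1 and Cebpb had -0.08 and 0.00, whereas the cells of the monocyte gates went from 50 in young to 1205 in aged mice and 310 under GA.

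The cells that held the UMIs of a factor therefore differed between libraries. B, T and NK cells held 74.3% of the Cebpb UMIs in young mice but 7.58% in aged and 23.5% in aged-GA mice. Of all UMIs these lymphocytes held 82.3%, 54.2% and 67.0%. Monocytes held 11.3%, 55.5% and 25.6% of the Cebpb UMIs, and 0.520%, 19.0% and 2.97% of all UMIs. For Klf4, lymphocytes held 79.6%, 22.8% and 52.9%, and for Spi1 58.8%, 10.6% and 29.8%. Neutrophils held 75.2% (aged) and 64.9% (aged-GA) of Cebpe, and basophils 70.0% and 38.8% of Gata2. Their shares of all UMIs were 5.21% and 2.59% (neutrophils) and 0.694% and 0.102% (basophils). Cells that the gates left unassigned held 17.0% to 21.7% of 6 of the members in aged mice and 9.92% of Cebpe, and of the 995 unassigned aged cells 862 had 3 or more genes of at least 2 families. In aged-GA mice unassigned cells held 22.0% to 39.7% of the members, including 32.2% of Cebpe, 36.6% of Cebpa and 39.7% of Gata2, which was more Gata2 than the basophil gate held. Of all UMIs, unassigned cells held 16.1% in aged and 16.2% in aged-GA mice.

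**Figure D4:**
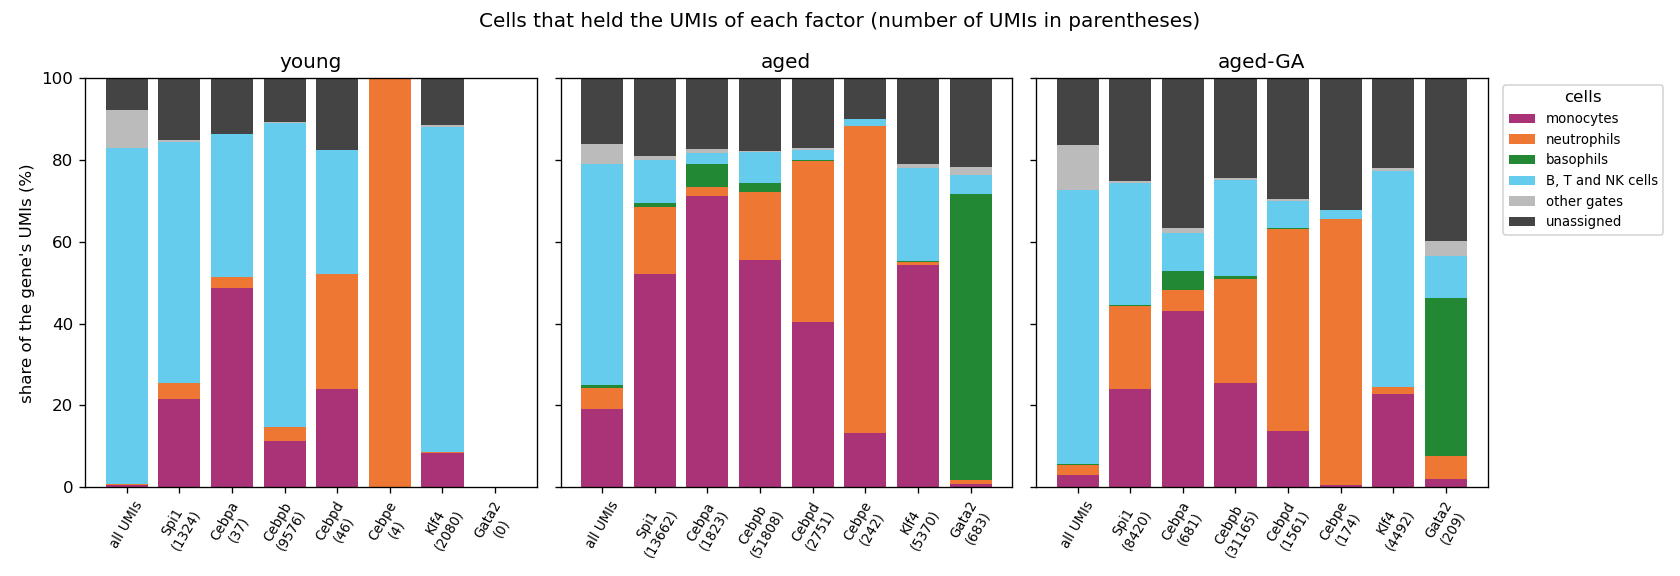
Share of the UMIs of each factor held by monocytes, neutrophils, basophils, lymphocytes, other gates and unassigned cells in each library, with all UMIs as the first bar and the number of UMIs in parentheses. Lymphocytes held 79.6% of the Klf4 UMIs in young mice and 22.8% in aged mice, beside 82.3% and 54.2% of all UMIs. Gata2 had none in young mice.

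Other transcription factors of myeloid and progenitor cells, a list of 30, were read beside the members. Between the monocyte subsets of aged mice, 6 of 25 with enough UMIs were past 2-fold higher in classical and 7 in nonclassical monocytes, where 10.8% and 11.8% of all genes were. Maf was higher in classical monocytes with 51.5 against 15.7 CPM, on the side of Cebpa and Cebpd. Nr4a1, which nonclassical monocytes need to form, had 305 against 1688 CPM, and Pou2f2 196 against 1048 CPM, on the side of Klf4 and Spi1. Mature neutrophils were past 2-fold lower than classical monocytes in 12 of 25 and higher in 3, near the shares of all genes (47.4% lower and 12.3% higher), and Irf8, which favours monocytes and dendritic cells over neutrophils, had 24.2 against 229 CPM. In nonclassical monocytes, aged over young, 3 of 22 were past 2-fold lower (Runx3, Egr1 and Id2) and none higher. Of all genes there, 4.40% were lower and 10.3% higher. Aged-GA over aged, none of 25 was past 2-fold in classical monocytes, where 6.32% of all genes were.

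Among 8 other C/EBP family members and partners, 7 had enough UMIs in each of these comparisons. Cebpg, a C/EBP without an activation domain, had 102 CPM in classical monocytes of both aged libraries. Aged over young, it was the 1 of 7 past 2-fold in each of B, T and NK cells. It had 29.5 against 13.2 CPM in B cells, 26.6 against 9.15 CPM in T cells and 27.9 against 7.42 CPM in NK cells. Of all genes, 10.8% in B cells, 17.0% in T cells and 7.65% in NK cells were past 2-fold. Among 20 genes commonly described as targets of PU.1 or C/EBP factors, none of 17 was past 2-fold in nonclassical monocytes, aged over young (14.7% of all genes). Their median was 0.10, while Spi1 and Cebpb had -0.08 and 0.00. In classical monocytes, aged-GA over aged, 2 of 19 were past 2-fold lower, where 3.96% of all genes were. These were Prtn3, a granule protease, at 58.6 against 174 CPM, and Elane, from 43 UMIs to 0. The same list, of which Lyz2 is a part, had 13 of 16 genes past 2-fold higher in aged over young T cells, with a median of 2.51. In B cells it had 7 of 16, with a median of 0.88. Of all genes, 13.8% in T cells and 8.30% in B cells were past 2-fold higher.

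The genes whose levels were most like those of a member over 27 points (a class of at least 20 cells in a library) were found among 12114 genes by Pearson's r of log2(CPM + 1), given as a description since the points share libraries and depth. For Spi1 these included Nfam1 (0.981) and Pirb (0.961). For Cebpd they were Arl11 (0.983), Pygl, the glycogen phosphorylase of liver type (0.974), and Tnfaip2 (0.960), and for Cebpb Sat1 (0.958), Plekho2 (0.958) and Ubtd1 (0.952). For Cebpe they were Mapk13 (0.967), Ncam1 (0.963) and 1700047M11Rik (0.957), for Klf4 Pot1b (0.937), Rras (0.913) and Slc46a3 (0.910), and for Cebpa Mfsd13a (0.940), Emilin2 (0.896) and Cask (0.890). For Gata2 they were Cyp11a1, Mcpt8 and Il4 (0.964, 0.964 and 0.962), all of which gated the basophils. Between members, Spi1 and Cebpb had 0.866 and Cebpb and Klf4 0.565.

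Several factors were found in the same cells. The median aged classical monocyte had UMIs of 4 of the 7 members, the nonclassical monocyte, mature neutrophil and basophil of 3, the B cell of 1 and the T cell of 0. These cells were not thinned, and their median depths differed, at 9931.5, 4049, 2232, 2732, 3113 and 4736 UMIs in the same order. The part of depth in these numbers was not tested. Spi1 and Cebpb were both found in 730 of 744 aged classical monocytes and 659 of 765 mature neutrophils. With or without the other, Spi1 was found in 731 and 665 of these cells and Cebpb in 743 and 754. Cebpa and Gata2 were found together in 50 of 117 aged basophils, that is, in all 50 with Cebpa, and in 13 of 26 aged-GA basophils, among 14 with Cebpa. Gata2 was found in 108 of all 117 aged and 23 of all 26 aged-GA basophils, so most had it with or without Cebpa. In aged classical monocytes Klf4 was found in 420 of the 523 cells with Cebpa (80.3%), near its share of 78.1% in all cells of the class, and Gata2 in 2. In granule-rich neutrophils of aged mice 16 of the 18 cells with Cebpe had Cebpb, near its share of 23 of all 25 cells. Klf4 was found in no cell of this class, with or without Cebpe.

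Gata2 outside the basophil gate was found in 77 of 185 barcodes with Gata2 in aged and 39 of 62 in aged-GA mice. Of these, 28 and 20 had 3 or more basophil genes, 12 and 10 had 3 or more platelet genes and 3 and 2 had Kit or Cd34, genes of progenitors. The platelet gate itself held 8 UMIs of Gata2 in 2 of 18 barcodes in aged-GA mice. Barcodes with Kit or Cd34 were thus a small part of the Gata2 barcodes outside the basophil gate. Those inside the gate were not examined for these genes.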

How the data were processed

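Droplet libraries of PBMCs (3′ v3 kit) from young, aged and aged-GA mice, 1 library per group by the labels, were analysed from the matrices that the authors deposited, whose entries are unnormalized UMI counts of a gene in a barcode. The matrix header names Cell Ranger 5.0.0, the methods another version, and the labels the mm10 build. Kept UMIs were 48249945 (young), 53770440 (aged) and 75832322 (aged-GA), with medians of 4671, 3810.5 and 4752 per kept cell.

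Cells with under 200 genes, with over 90% of the gene number of the richest cell in the library, or with over 7.5% mitochondrial UMIs were removed. No doublet caller was run. Cells with 3 or more genes of 2 families were left out as an alternative. Marker lists of 8 genes gated the cells (at least 3 genes and a lead of 2 over the next family, and a lead of 2 to split monocytes and neutrophils). UMIs were summed per class and library and given as CPM with exact Poisson intervals, and ratios with exact conditional binomial intervals, at 95%. They cover counting error only, since each group was 1 library, and no test across groups was possible. Shares of cells were counted after thinning each cell to 500 UMIs (seed 1). A count of 0 was set to 3 counts for bounds, which are not the ends of the 95% intervals. A gene with at least 20 UMIs over both sides was counted as past the threshold at 2-fold, and classes needed 20 cells on each side. All 7 members are named, as are the 3 genes most like each (at least 100 UMIs, 1 CPM added) except for a result that is not reported here, and genes of fixed lists serve as examples, chosen after their values were seen. The members, lists and gates were chosen with earlier results of these data known. Free RNA was scaled from the Lyz2 UMIs of a lymphocyte class. Promoter sequences came from RefSeq (GRCm38.p6) and gene positions from the GENCODE annotation of GRCm38. The alternatives were other gates, cell filters, denominators, weights, minimum UMIs and an added CPM. The gate and the intervals were tested on simulated data. Python 3.11.15, numpy 2.4.6, scipy 1.17.1 and pandas 2.3.3 were used.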

Additional observations from a re-analysis of the deposited data

Results flagged for a closer look

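The barcodes that the cell filters removed entered no main comparison, though some returned in the alternative without the mitochondrial limit. Cebpd was higher in the removed barcodes of both aged libraries than in those of the young library. It had 2.21 CPM (1.70 to 2.83, 63 UMIs in 5800 barcodes) in the aged and 2.24 CPM (1.66 to 2.95, 50 UMIs in 4684 barcodes) in the aged-GA library, against 0.282 CPM (0.0581 to 0.824, 3 UMIs in 1991 barcodes) in the young library. The kept cells of the same libraries had 51.2, 20.6 and 0.953 CPM of Cebpd. Klf4 went the other way in the removed barcodes, at 3.62 CPM (aged), 7.39 CPM (aged-GA) and 21.6 CPM (young).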

How the results depend on the processing

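Over 52 log2 ratios with at least 100 UMIs on both sides, 400 values were recomputed under the alternatives: 324 stayed within the counting interval, 76 left it, and 0 of the called ratios changed sign. Of 351 values of 47 ratios with fewer UMIs, 27 left the interval. The causes were not tested. In the stricter gate (4 genes, at most 1 of another family) the log2 ratios, aged over young, were Spi1 0.21 in nonclassical monocytes, Cebpb -0.41 in T cells, Klf4 0.41 in T cells and Cebpb -1.51 in NK cells. In the stricter gate (4 genes, at most 1 of another family) the log2 ratios, aged-GA over aged, were Spi1 0.053 in nonclassical monocytes, Spi1 -0.14 in mature neutrophils, Cebpb 0.30 in mature neutrophils, Spi1 0.25 in B cells, Cebpb 0.38 in B cells and Cebpb 0.12 in T cells. In the stricter gate (4 genes, at most 1 of another family) the log2 ratios between classes were Spi1 -1.06 in classical over nonclassical, aged, Cebpa 2.59 in classical over nonclassical, aged, Spi1 0.95 in neutrophils over classical, aged, Cebpb 0.88 in neutrophils over classical, aged and Cebpd 2.93 in neutrophils over classical, aged. In the stricter gate (4 genes, at most 1 of another family) the genes past 2-fold, aged-GA over aged, were 235 in mature neutrophils. In the stricter gate (4 genes, at most 1 of another family) the genes past 2-fold between classes were 2357 in neutrophils over classical, aged. In the looser gate (2 genes, lead of 1) the log2 ratios, aged over young, were Cebpb -0.77 in B cells. In the looser gate (2 genes, lead of 1) the log2 ratios, aged-GA over aged, were Cebpb 0.15 in B cells. In the looser gate (2 genes, lead of 1) the log2 ratios between classes were Cebpb 0.58 in neutrophils over classical, aged, Cebpd 1.61 in neutrophils over classical, aged and Cebpb 0.70 in neutrophils over classical, aged-GA. Without cells that had 3 or more genes of 2 families the log2 ratios, aged over young, were Cebpb -1.01 in B cells, Cebpb -1.39 in NK cells, Spi1 3.06 in all kept cells, Cebpb 2.04 in all kept cells and Klf4 1.03 in all kept cells. Without cells that had 3 or more genes of 2 families the log2 ratios, aged-GA over aged, were Cebpb -0.30 in basophils, Cebpb 0.34 in B cells, Cebpb -1.20 in all kept cells, Cebpe -1.41 in all kept cells, Klf4 -0.67 in all kept cells and Gata2 -2.91 in all kept cells. Without cells that had 3 or more genes of 2 families the log2 ratios between classes were Klf4 -1.38 in classical over nonclassical, aged, Spi1 0.81 in neutrophils over classical, aged, Cebpb 0.83 in neutrophils over classical, aged, Cebpd 1.98 in neutrophils over classical, aged, Cebpb -0.55 in classical over nonclassical, aged-GA, Cebpb 0.87 in neutrophils over classical, aged-GA and Cebpd 2.18 in neutrophils over classical, aged-GA. With haemoglobin, mitochondrial and ribosomal protein genes left out of the denominator the log2 ratios, aged over young, were Cebpb -0.42 in T cells, Spi1 2.90 in all kept cells, Cebpb 1.97 in all kept cells and Klf4 0.90 in all kept cells. With haemoglobin, mitochondrial and ribosomal protein genes left out of the denominator the log2 ratios, aged-GA over aged, were Cebpb 0.31 in mature neutrophils, Spi1 -1.02 in all kept cells, Cebpa -1.74 in all kept cells, Cebpb -1.05 in all kept cells, Cebpd -1.13 in all kept cells and Klf4 -0.57 in all kept cells. With haemoglobin, mitochondrial and ribosomal protein genes left out of the denominator the log2 ratios between classes were Cebpb -0.80 in classical over nonclassical, aged, Spi1 0.50 in neutrophils over classical, aged, Cebpb 0.52 in neutrophils over classical, aged, Cebpd 1.63 in neutrophils over classical, aged, Cebpb -0.56 in classical over nonclassical, aged-GA, Spi1 0.41 in neutrophils over classical, aged-GA and Cebpb 0.58 in neutrophils over classical, aged-GA. With cells weighted equally the log2 ratios, aged over young, were Spi1 2.85 in all kept cells, Cebpb 2.03 in all kept cells and Klf4 0.81 in all kept cells. With cells weighted equally the log2 ratios, aged-GA over aged, were Cebpb 0.31 in mature neutrophils, Spi1 -0.92 in all kept cells, Cebpa -1.70 in all kept cells, Cebpb -0.90 in all kept cells, Cebpd -1.01 in all kept cells, Klf4 -0.54 in all kept cells and Gata2 -2.52 in all kept cells. With cells weighted equally the log2 ratios between classes were Spi1 0.77 in neutrophils over classical, aged, Cebpb 0.85 in neutrophils over classical, aged, Cebpd 1.98 in neutrophils over classical, aged and Cebpb 0.88 in neutrophils over classical, aged-GA. With at least 500 genes per cell the log2 ratios, aged over young, were Cebpb 2.20 in all kept cells and Klf4 1.13 in all kept cells. With at least 500 genes per cell the log2 ratios, aged-GA over aged, were Spi1 -1.09 in all kept cells, Cebpb -1.13 in all kept cells, Cebpd -1.21 in all kept cells and Klf4 -0.65 in all kept cells. With 1 CPM added to both sides the log2 ratios, aged-GA over aged, were Gata2 -1.87 in all kept cells. With 1 CPM added to both sides the genes past 2-fold, aged over young, were 598 in B cells and 1126 in T cells. With 1 CPM added to both sides the genes past 2-fold, aged-GA over aged, were 32 in B cells and 63 in T cells. With at least 50 UMIs per gene the genes past 2-fold, aged over young, were 499 in nonclassical monocytes, 718 in B cells and 201 in NK cells. With at least 50 UMIs per gene the genes past 2-fold, aged-GA over aged, were 270 in classical monocytes, 65 in nonclassical monocytes, 154 in mature neutrophils, 32 in intermediate neutrophils, 64 in basophils, 104 in B cells, 163 in T cells and 52 in NK cells. With at least 50 UMIs per gene the genes past 2-fold between classes were 977 in classical over nonclassical, aged-GA and 2488 in neutrophils over classical, aged-GA. With at least 5 UMIs per gene the genes past 2-fold, aged over young, were 2406 in nonclassical monocytes, 2121 in B cells, 3207 in T cells and 1588 in NK cells. With at least 5 UMIs per gene the genes past 2-fold, aged-GA over aged, were 1494 in classical monocytes, 1088 in nonclassical monocytes, 1699 in mature neutrophils, 1203 in intermediate neutrophils, 1763 in basophils, 1217 in B cells, 1297 in T cells and 1133 in NK cells. With at least 5 UMIs per gene the genes past 2-fold between classes were 2719 in classical over nonclassical, aged-GA. The stricter gate left under 20 cells in aged-GA classical monocytes, basophils and intermediate neutrophils, so no value could be given there. No paired analysis was possible because each group was 1 library. Depth limits the ratios with few UMIs on a side, such as Cebpa and Cebpd in B and T cells, and the classes of few cells.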
